A study of Rattus norvegicus with 6 samples.

Results

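Kidney RNA was profiled on Agilent one-colour rat arrays, and 50 genes of oxidant defence and oxidant production were followed: the regulator NRF2 and its targets, the glutathione system, superoxide dismutases, peroxiredoxins and thioredoxin, metallothioneins and the NADPH oxidases. The genes were taken from a list of symbols and found on the array through the RefSeq accession of each probe. In all, 49 of the 50 genes had at least 1 probe, Pgd had none by this route, and 56 of the 30367 probes belonged to them. Nqo1 and Mgst2 did not pass the filter on dim probes, which left 47 genes among the 17892 features tested. The samples were kidneys of 3 diabetic rats and of 3 rats given Bailing Capsule, a fermented Cordyceps preparation, all aged 21 weeks. Strain, sex, dose and the way diabetes was induced are not in the labels, nor is whether the treated rats had diabetes, and no healthy rats were analysed here. The series addresses the effect of the preparation on renal gene expression. Replicates are separate samples in the labels, and p-values therefore measure the spread between these samples. In whole kidney, fewer cells of a type and less RNA per cell cannot be told apart.

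NRF2, encoded by Nfe2l2, is held in check by the adaptor protein KEAP1, which marks it for degradation. Electrophiles and oxidants block KEAP1, and NRF2 then binds antioxidant response elements in genes that make glutathione, regenerate NADPH and conjugate reactive compounds. NADPH oxidases work the other way and make superoxide or hydrogen peroxide on purpose; Nox4 is the main form of renal tubules, and Cybb with Ncf1 and Ncf4 form the oxidase of phagocytes. In the kidney the proximal tubule carries much of this machinery, including glutathione breakdown at the brush border and secretion of the plasma peroxidase Gpx3.

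No member passed the test between groups. In the limma fit over all features 0.319% were called at an adjusted p under 0.05 (57 of 17892, 23 higher and 34 lower in Bailing Capsule kidneys), and 0 of the 47 members were among them. The split of the 57 depended on scaling, with 27 higher and 20 lower in the deposited values and 18 and 14 with cyclic loess. The count also depended on single arrays: it was 195, 17 and 18 without diabetic replicates 1, 2 and 3, and 143, 28 and 33 without Bailing Capsule replicates 1, 2 and 3, with 0 members called in each. At an unadjusted p under 0.05, 5 members were lower and 2 higher, or 10.64% and 4.26% of the members, against 4.56% and 3.0% of all features. The groups did not overlap, with every Bailing Capsule array below every diabetic array, for 6 members (12.77%) against 7.03% of all features. No member had every Bailing Capsule array above every diabetic array, which 4.58% of all features had. The 6 members were the transferases Gstm1, Gstm2 and Mgst1, the peroxiredoxins Prdx1 and Prdx5, and Srxn1. All but Prdx5 were the same 5 that were lower at an unadjusted p under 0.05 in limma, so the 2 counts are not separate results. With quantile normalization Prdx5 and Srxn1 overlapped: Bailing Capsule replicate 2 was above every diabetic array for Prdx5, and Bailing Capsule replicate 3 was above diabetic replicate 3 for Srxn1.

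Every value below is a log2 intensity relative to the 75th percentile of its own array, so a probe at the 75th percentile has 0, and every difference is Bailing Capsule minus diabetic. Of the 47 members 32 had negative differences (68.09%, against 62.07% of all features), and the median member had -0.15 against -0.09 for all features. That lean depended on the scaling and on the model. With quantile normalization 24 of the 47 were negative, or 51.06% against 55.62% of all features, so the members were then less often negative than the rest. With the deposited values 23 were negative (48.94% against 48.87%), and in the model with slide as a block 22 were (46.81% against 40.55%).

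Kidney markers were present on all arrays. All 12 proximal tubule markers were tested, 11 of them with negative differences and 2 with groups apart and lower. Their median was -0.29, and none was called. Their summed level, in units of each array's 75th percentile, ran from 659 to 1076 in diabetic and from 534 to 1011 in Bailing Capsule kidneys. Of the markers of thick limb, distal tubule and collecting duct 8 were tested, 4 with positive and 4 with negative differences. Their median was 0.18, and 1, Slc26a4, was called, with a difference of 1.68. The groups were apart and higher for 2 of the 8, Slc26a4 among them, and apart and lower for 1. Over all features 4.58% were apart and higher and 7.03% apart and lower. Liver genes, in which glutathione transferases are also abundant, were all negative among the 7 tested, with a median of -1.13 and none called. The groups were apart for 5 of them (Alb, Serpina1, Apoc3, Fga and Fgb), each with an unadjusted p under 0.05. The summed level of the list, 23.5 to 53.3 in diabetic and 18.1 to 41.1 in Bailing Capsule kidneys, overlapped and was mostly that of Tf, whose groups overlapped. The liver markers Apoa1 and Ahsg were not well above background on any array. All 4 red cell genes tested had positive differences, with a median of 0.56 and none called; 2 had an unadjusted p under 0.05, and for Alas2, which starts haem synthesis in red cell precursors, the groups were apart (1.04, SE 0.30). Their summed level was 62.6 to 114.5 in diabetic and 91.1 to 170.0 in Bailing Capsule kidneys. Podocyte markers had a median of 0.25 over 5 genes and endothelial markers -0.33 over 4, with no groups apart. The part of these cell types in the members' differences was not tested. By the scan times in the headers the arrays sat on 2 slides. Diabetic replicates 2 and 3 were alone on slide 2, and diabetic replicate 1 shared slide 1 with the whole treated group. Blocking on slide therefore leaves only the contrast inside slide 1, with 1 diabetic array.

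Transcript levels of the NRF2 pair itself had small differences in the main processing. Nfe2l2 had 3.01, 2.56 and 2.64 in diabetic replicates 1 to 3 and 2.81 in both Bailing Capsule replicates 2 and 3; its spot on Bailing Capsule replicate 1 was flagged as an outlier and left out. The difference was 0.07 (SE 0.29, 95% interval -0.58 to 0.72). Keap1 had -3.03, -2.23 and -2.65 in diabetic and -2.61, -2.34 and -2.42 in Bailing Capsule kidneys, a difference of 0.18 (SE 0.28, 95% interval -0.43 to 0.79). The groups overlapped for both genes, and both 95% intervals, from the fit without slide, lay within 1 log2 unit of 0. With slide as a block, which leaves 1 diabetic array, the differences were -0.21 for Nfe2l2 and 0.57 for Keap1. The arrays measure RNA, and NRF2 activity is set largely by protein stability.

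Of 13 listed NRF2 targets 11 were tested, 8 with negative and 3 with positive differences, and the median was -0.18. Prdx1, a peroxiredoxin that reduces hydrogen peroxide in the cytosol, had 4.50, 5.02 and 4.56 in diabetic kidneys and 4.02, 3.40 and 3.73 in Bailing Capsule kidneys. All 3 treated arrays lay below all diabetic arrays, with a difference of -0.98 (SE 0.28), 1.97-fold, and an adjusted p of 0.277. Srxn1, the sulfiredoxin that repairs overoxidised peroxiredoxins, had 2.08, 2.64 and 1.79 against 1.06, 0.57 and 1.78. Its groups were apart only by the third decimal, since diabetic replicate 3 (1.785) and Bailing Capsule replicate 3 (1.782) nearly coincided. The difference was -1.03 (SE 0.36, adjusted p = 0.418). The other peroxiredoxin members, Prdx2, Prdx3, Prdx5 and Prdx6, had -0.09, -0.18, -0.42 and 0.16. Prdx1 and Srxn1 had the same direction and a similar size, and a link between them was not tested.

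Osgin1, an oxidative stress response gene that NRF2 induces, had the opposite direction. It had -2.24, -2.55 and -2.63 in diabetic kidneys and -2.38, -1.20 and -1.54 in Bailing Capsule kidneys. Bailing Capsule replicates 2 and 3 were above every diabetic array and replicate 1 was not, and the difference of 0.77 (SE 0.33) had an adjusted p of 0.615. Hmox1, the inducible haem oxygenase, had -4.32, -3.69 and -3.59 against -4.68, -3.98 and -4.53. These groups overlapped, with a difference of -0.53 (SE 0.30), and with slide as a block it was -0.07, since diabetic replicate 1 was the lowest diabetic array. Nqo1, a quinone reductase and a standard readout of NRF2, had -5.66, -4.96 and -5.54 against -6.67, -4.21 and -5.10. It was well above background on 1 diabetic and 2 Bailing Capsule arrays and was not tested. Txn1, thioredoxin itself, had a difference of -0.30. Its reductase Txnrd1 had -3.15, -2.95 and -3.07 against -3.63, -2.26 and -3.36, a difference of -0.03, and on its other probe -3.37, -3.55 and -3.32 against -4.01, -3.61 and -3.53, a difference of -0.30. Me1, a source of cytosolic NADPH, had 3.50, 4.28 and 3.99 against 4.03, 3.89 and 3.92, a difference of 0.02, and on its other probe 1.54, 1.74 and 1.65 against 1.39, 2.36 and 1.96, a difference of 0.26. The groups overlapped on all 4 probes of these 2 genes. Taldo1, of the pentose phosphate pathway, had -0.33 with its spot on Bailing Capsule replicate 3 left out, and its SE of 0.45 was the widest among the members.

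**Figure D1:**
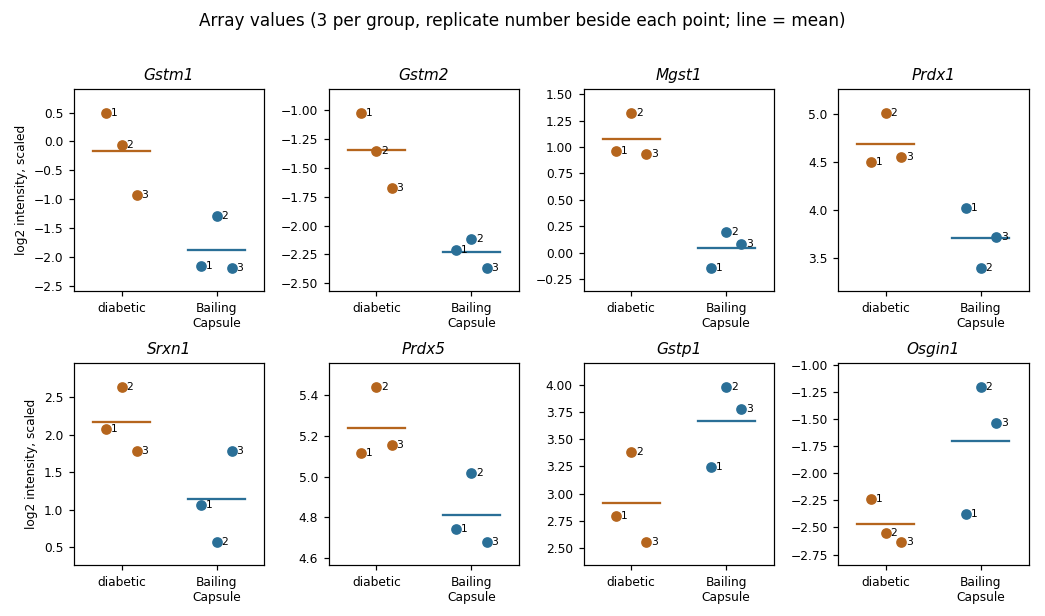
Scaled log2 intensity on each array (vertical axis, scale differs by panel) for 6 members whose groups did not overlap and the 2 with the smallest unadjusted p among those with positive differences; points carry the replicate number and lines are group means. Gstm1, Gstm2, Mgst1, Prdx1, Srxn1 and Prdx5 lie lower on all 3 Bailing Capsule arrays, while Gstp1 and Osgin1 overlap through Bailing Capsule replicate 1.

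To see which members carry the letters that NRF2 recognises, the 250 bases before each transcription start were searched for the core of the antioxidant response element, TGACNNNGC, on both strands. It was found for 11 of the 42 listed members with a promoter in the RefSeq table (26.2%), beside 10.1% of 33469 promoters of the same length. Members were counted as genes and the background as promoters, of which a gene can have several. The shares are therefore not directly comparable, and enrichment among the members was not tested. The core can contain TGACTCA, the usual letters of an AP-1 site, so a match does not tell these elements apart. Windows are shown for a lower member, the transferase with the highest difference, 3 genes with differences nearer 0 and a metallothionein, in gene orientation, with the match in capitals (a match on the opposite strand reads GCNNNGTCA).

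Prdx1: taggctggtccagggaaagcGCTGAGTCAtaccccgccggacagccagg
Gstp1: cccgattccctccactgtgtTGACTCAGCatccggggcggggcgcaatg
Gclm: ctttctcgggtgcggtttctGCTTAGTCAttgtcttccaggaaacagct
Txnrd1: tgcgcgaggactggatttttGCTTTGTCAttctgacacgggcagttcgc
Me1: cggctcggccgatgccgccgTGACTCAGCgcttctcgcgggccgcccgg
Mt1: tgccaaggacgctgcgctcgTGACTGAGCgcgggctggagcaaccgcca

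These windows are from RefSeq on GRCr8. They lie at chr5:135383751-135383799 (plus strand) for Prdx1, chr1:210769738-210769786 (minus strand) for Gstp1 and chr2:213031943-213031991 (plus strand) for Gclm. Those of Txnrd1, Me1 and Mt1 lie at chr7:22755954-22756002, chr8:96540383-96540431 and chr19:10833048-10833096, all on the minus strand. The match begins 135 bases before the start in Prdx1 and 61 bases before it in Gstp1. The other members with a match were Gpx2, Gsta3, Sod2, Mt2A and Ncf1. The 11 tested members with the core had differences from -0.98 to 0.76, with a median of -0.18. The 29 tested members without it had a median of -0.18 as well, from -1.72 to 0.77. Prdx1 and Gstp1, which both hold the core, thus stand at opposite ends of the range. A missing match, as for Srxn1 and Gstm1, says only that these letters are not in this window.

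The 5 genes that make and recycle glutathione had small differences of both signs, with a median of 0.14. Gclc, the catalytic subunit of the rate-limiting glutamate-cysteine ligase, had 6.23, 6.52 and 6.27 in diabetic kidneys and 6.48, 5.83 and 6.18 in Bailing Capsule kidneys. The groups overlapped, and the difference was -0.18 (SE 0.26). The sign turned positive with quantile normalization, with normexp followed by the same quantile step, with the deposited values and with cyclic loess. Its modifier subunit Gclm had 0.14 (SE 0.26) and glutathione synthetase, Gss, 0.28 (SE 0.38). Gss spread widely on the treated arrays, at -0.11, 1.54 and 0.89, around the diabetic values of 0.61, 0.41 and 0.46. Gsr, which reduces oxidised glutathione with NADPH, had -0.11 (SE 0.25), and Ggt1, the brush border enzyme that begins glutathione breakdown, had 0.16 (SE 0.26). The 95% intervals of Gclc, Gclm, Gsr and Ggt1 all lay within 1 log2 unit of 0.

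Of the 4 glutathione peroxidases 3 had negative differences, with a median of -0.57. Gpx2, the epithelial form, had 5.01, 6.25 and 5.82 in diabetic and 5.55, 4.42 and 4.63 in Bailing Capsule kidneys, a difference of -0.83 (SE 0.39, adjusted p = 0.694). Its other probe had 3.67, 3.74 and 2.16 against 2.31, 2.39 and 2.12, a difference of -0.92. The 2 probes of Gpx2 agreed in sign, but they parted the diabetic arrays differently: replicate 1 was lowest on one and near the top on the other. Gpx1, the abundant cytosolic form, had 4.0, 4.84 and 4.30 against 3.70, 4.16 and 3.43, a difference of -0.62 (SE 0.31). Gpx4, which reduces lipid peroxides in membranes, had 5.49, 6.19 and 5.83 against 5.74, 5.0 and 5.21, a difference of -0.52 (SE 0.30). The other probe of Gpx4 had 3.04, 3.50 and 3.27 against 2.86, 3.18 and 2.98, a difference of -0.26. Gpx3, the form the kidney secretes into plasma, was the exception, at 2.09, 2.69 and 2.33 against 2.83, 3.14 and 2.34, a difference of 0.40 (SE 0.29). In each of these genes the groups overlapped. With slide as a block the differences were -0.14 for Gpx2, -0.24 for Gpx1 and -0.17 for Gpx4, and the group median was -0.16, since diabetic replicate 1 had the lowest diabetic value of all 3 genes.

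Gstm1, the member with the widest difference in the main processing, is one of the glutathione transferases, which join glutathione to electrophiles. Of 13 listed 12 were tested, 10 with negative differences, and the median was -0.16. Gstm1, a mu-class transferase, had 0.50, -0.06 and -0.92 in diabetic kidneys and -2.16, -1.29 and -2.19 in Bailing Capsule kidneys. All treated arrays were below all diabetic arrays, which themselves ranged over more than 1 log2 unit. The difference was -1.72 (SE 0.39), 3.29-fold, with an adjusted p of 0.149 that ranked 157 among all features. Gstm2 had -1.02, -1.35 and -1.67 against -2.21, -2.11 and -2.37, a difference of -0.88 (SE 0.26, adjusted p = 0.306). Both genes had their highest value on diabetic replicate 1 and their next on diabetic replicate 2, and with slide as a block the differences were -2.38 and -1.21.

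The mu-class genes lie side by side in the rat genome: no protein-coding gene separates Gstm3 from Gstm2, Gstm2 from Gstm1 or Gstm1 from Gstm4 in RefSeq. All 6 mu-class differences were negative in the main processing, where 62.07% of all features were. That of Gstm4 turned positive in 3 alternatives. No test compared the genes with each other. Gstm5, further along the cluster, had -1.80, -2.29 and -2.70 against -3.23, -2.72 and -3.11, with the groups apart and a difference of -0.76 (SE 0.30, adjusted p = 0.548). Its diabetic arrays were in the same order as those of Gstm1 and Gstm2. Gstm3 had -0.51 (SE 0.34), Gstm4 -0.07 (SE 0.29) and Gstm7, from 5 arrays, -0.12 (SE 0.48), and their groups overlapped. Gstm4 had -4.32, -4.38 and -4.09 against -4.87, -3.96 and -4.18, with 1 treated array not above background, and its other probe, at -4.37, -5.22 and -4.87 against -5.66, -4.02 and -4.56, was too dim to test. Mu-class transcripts are close in sequence, no probe sequences were used here, and how far each probe reads its neighbours' transcripts was not tested.

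Mgst1, a membrane-bound transferase that also acts as a peroxidase, was steady within each group. It had 0.96, 1.33 and 0.93 in diabetic and -0.14, 0.20 and 0.08 in Bailing Capsule kidneys, a gap wider than the spread within either group. The difference was -1.03 (SE 0.25), 2.04-fold, with an adjusted p of 0.190. Across all the alternatives it ran from -1.10 to -0.90, and the lowest adjusted p was 0.0854. Mgst2, the related enzyme that can also make leukotriene, was not well above background on any array.

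Gstp1, the pi-class transferase, had 2.79, 3.39 and 2.56 in diabetic and 3.25, 3.98 and 3.78 in Bailing Capsule kidneys. Replicates 2 and 3 of the treated group exceeded every diabetic array and replicate 1 lay between them, and the difference was 0.76 (SE 0.31, adjusted p = 0.579). The alpha-class genes, of which Gsta1, Gsta2 and Gsta4 are among the brightest probes on the array, had -0.18, -0.29 and -0.39. Gsta3 depended on the probe. The brighter probe had 5.11, 5.72 and 5.09 against 5.38, 5.30 and 5.14, a difference of -0.03, and the other had 2.81, 2.77 and 2.41 against 1.98, 1.46 and 1.69, with no overlap and a difference of -0.95 (limma over single probes, adjusted p = 0.246). Of the remaining members, Gstt1 had -0.06, Gstt2 -0.15 and Gstk1, of mitochondria and peroxisomes, 0.05.

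**Figure D2:**
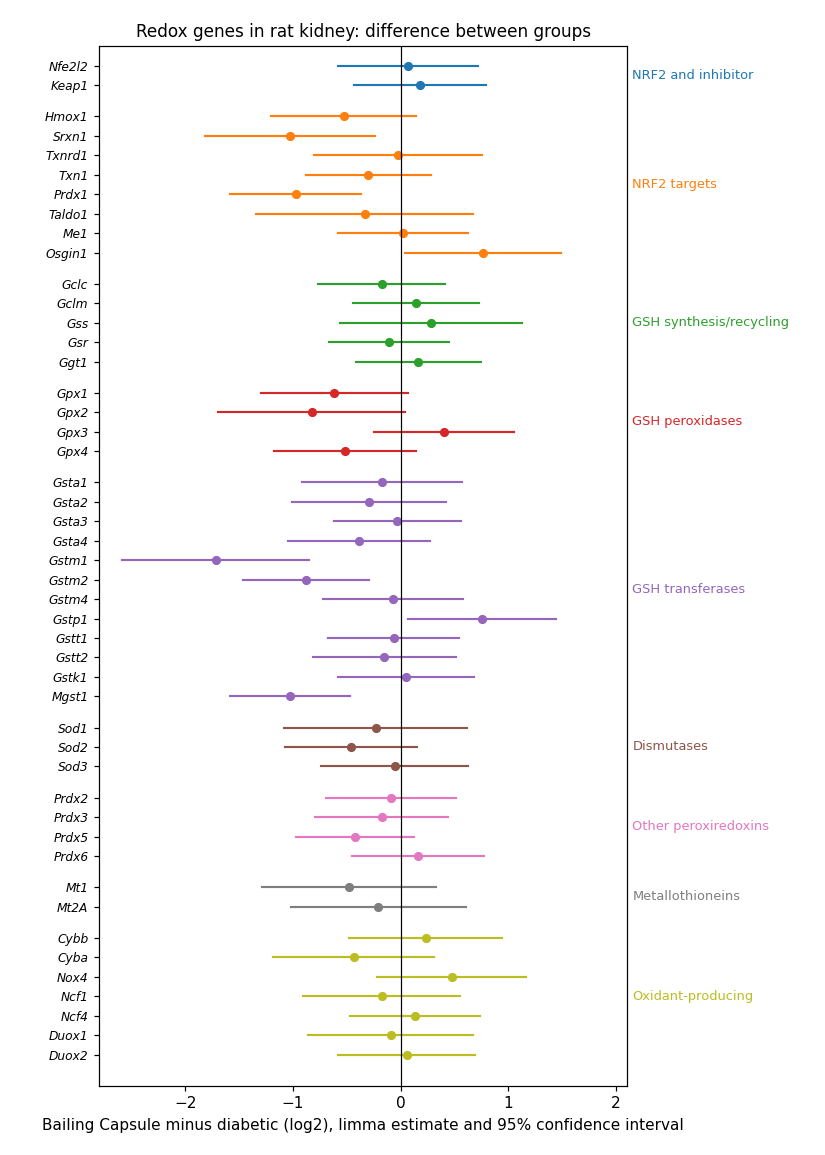
Difference between groups, Bailing Capsule minus diabetic, for the 47 tested members (points, log2) with 95% confidence intervals from limma (lines), in order of function; Prdx1, Srxn1, Txn1 and Txnrd1 are drawn once, under NRF2 targets, and Gclc, Gclm and Gsr under glutathione synthesis. The intervals of Gstm1, Gstm2, Mgst1, Prdx1 and Srxn1 lie below 0 and those of Gstp1 and Osgin1 above it, before any adjustment over the 17892 features.

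The 3 superoxide dismutases all had negative differences, with a median of -0.23. Sod2, the mitochondrial enzyme, had 2.48, 2.75 and 2.44 in diabetic and 2.49, 1.71 and 2.08 in Bailing Capsule kidneys, a difference of -0.46 (SE 0.28). The cytosolic Sod1 and the secreted Sod3 had -0.23 and -0.06. Both turned positive with quantile normalization, normexp (again followed by quantile normalization), the deposited values, cyclic loess and slide as a block. The median of the 3 genes was then 0.03, 0.07, 0.07, 0.05 and 0.19 in that order. Among the peroxiredoxins other than Prdx1, Prdx5 was the only one with groups apart. It had 5.12, 5.44 and 5.15 against 4.74, 5.02 and 4.68, a difference of -0.42 (SE 0.25, adjusted p = 0.806), and -0.22 with quantile normalization. Prdx2, Prdx3 and Prdx6 had -0.09, -0.18 and 0.16.

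The metallothioneins bind zinc and copper and scavenge radicals, and their genes neighbour each other. Mt1 had 6.63, 7.54 and 6.85 in diabetic and 7.21, 6.01 and 6.36 in Bailing Capsule kidneys, and Mt2A had 6.75, 7.81 and 7.13 against 7.64, 6.50 and 6.92. Both were highest on diabetic replicate 2 and Bailing Capsule replicate 1 and lowest on Bailing Capsule replicate 2, and the differences were -0.48 (SE 0.36) and -0.21 (SE 0.37). The other probe of Mt2A, which is dimmer, had 3.49, 4.0 and 3.34 against 3.27, 3.66 and 3.02, a difference of -0.29.

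A similar order of arrays ran through the brightest probes of the whole array. The 463 features with a value on every array among the 500 brightest had median deviations, from their mean over the 6 arrays, of -0.21, 0.55 and 0.07 on the diabetic and 0.38, -0.58 and -0.19 on the Bailing Capsule arrays. The 7 members among them (Gclc, Gsta1, Gsta2, Gsta4, Sod1, Mt1 and Mt2A) had -0.24, 0.60 and 0.02 against 0.43, -0.62 and -0.20. The 7 members and the 463 features, which include them, had the same order of arrays. Quantile normalization gives the arrays 1 common distribution, so that the bright features as a set lie near 0 by construction. The median of the 7 members then stayed within 0.10 of 0 on every array, while single members could lie further away. The differences of Mt1 and Gsta4 ran up to -0.10 and -0.08 under the alternatives without changing sign.

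**Figure D3:**
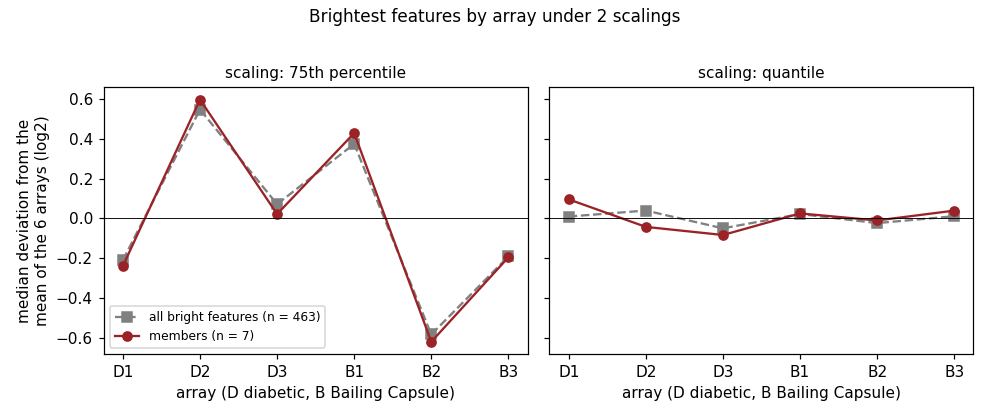
Median deviation (log2) of the brightest features from their mean over the 6 arrays, by array, scaled on the 75th percentile (left) or by quantile normalization (right); squares are 463 bright features and circles the 7 members among them. The members and the 463 features, which include them, follow the same course on the left, highest on diabetic replicate 2 and lowest on Bailing Capsule replicate 2. Both lie near 0 on the right, where quantile normalization places the bright features by construction.

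The 7 oxidant-producing genes had differences of both signs, 4 positive and 3 negative, with a median of 0.05, and none had separate groups. Nox4, which makes hydrogen peroxide in tubular cells, had -0.75, -0.76 and -1.09 in diabetic and -0.88, 0.20 and -0.49 in Bailing Capsule kidneys. Its treated values lay mostly higher and more widely spread, with a difference of 0.48 (SE 0.31, 95% interval -0.22 to 1.17). Cyba, the p22phox subunit that Nox4 and Cybb both need, had 5.46, 5.87 and 5.48 against 5.91, 4.77 and 4.82, a difference of -0.44 (SE 0.34), and -0.27 with quantile normalization. Catalytic subunit and partner thus differed in sign, and neither passed.

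The genes of the phagocyte oxidase showed no common direction. Cybb, its catalytic subunit, had -4.54, -3.45 and -3.55 in diabetic and -3.71, -3.48 and -3.65 in Bailing Capsule kidneys. Diabetic replicate 1 was low, the groups overlapped, and the difference of 0.23 (SE 0.32) became 0.92 with slide as a block and -0.11 without diabetic replicate 1. Ncf1, the organiser subunit p47phox, had 0.52, 0.99 and 1.11 against 1.36, 0.34 and 0.39, a difference of -0.18 (SE 0.33), and the adaptor Ncf4 had 0.14 (SE 0.27). Of 15 listed phagocyte and leukocyte markers 13 were tested, with 7 positive and 6 negative differences, a median of 0.01 and none called. Their summed level was 59.1 to 70.9 in diabetic and 50.6 to 91.8 in Bailing Capsule kidneys. In that list the neutrophil genes S100a8 and S100a9 had -1.78 and -1.46 and the integrin gene Itgb2 had -0.86, with the treated arrays lower and no overlap; S100a8 and S100a9 were each well above background on 2 of the treated arrays. The pan-leukocyte gene Ptprc had 0.13 with the treated arrays higher and no overlap. So 3 of the 13 were apart and lower and 1 apart and higher, beside 7.03% and 4.58% of all features. The largest positive differences of the list were Fcer1g 0.60, Tyrobp 0.26 and Cd68 0.25, with overlapping groups. The part of these cells in the values of the oxidase genes was not tested. Duox1 and Duox2, epithelial oxidases that release hydrogen peroxide, had -0.09 (SE 0.34) and 0.05 (SE 0.29), and 1 diabetic array did not reach background for Duox2.

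**Figure D4:**
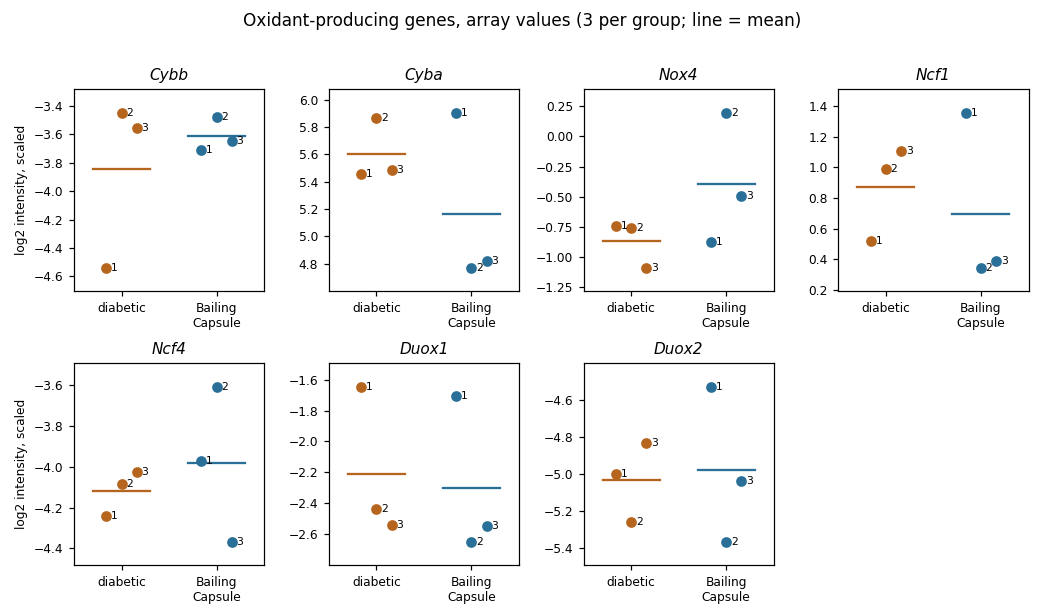
Scaled log2 intensity on each array (vertical axis, scale differs by panel) for the 7 oxidant-producing genes, with replicate numbers beside the points and lines at group means. The groups overlap in every panel, and the low Cybb value is that of diabetic replicate 1.

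NRF2 targets, glutathione genes and oxidant-producing genes were set side by side by their medians, which were -0.18 over 11 targets, -0.15 over 21 glutathione genes and 0.05 over 7 oxidant-producing genes, with -0.09 for all features. Relative to the diabetic mean, the medians of the NRF2 targets on single arrays were -0.11, 0.19 and -0.14 in diabetic and -0.15, -0.11 and -0.23 in Bailing Capsule kidneys. Those of all glutathione genes were -0.19, 0.28 and -0.08 against -0.10, -0.22 and -0.22. The oxidant-producing genes had -0.12, 0.10 and 0.09 against 0.30, -0.33 and -0.25. Array medians overlapped between groups for the targets and the oxidant-producing genes. For the glutathione genes they overlapped too, through Bailing Capsule replicate 1 and diabetic replicate 1.

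**Figure D5:**
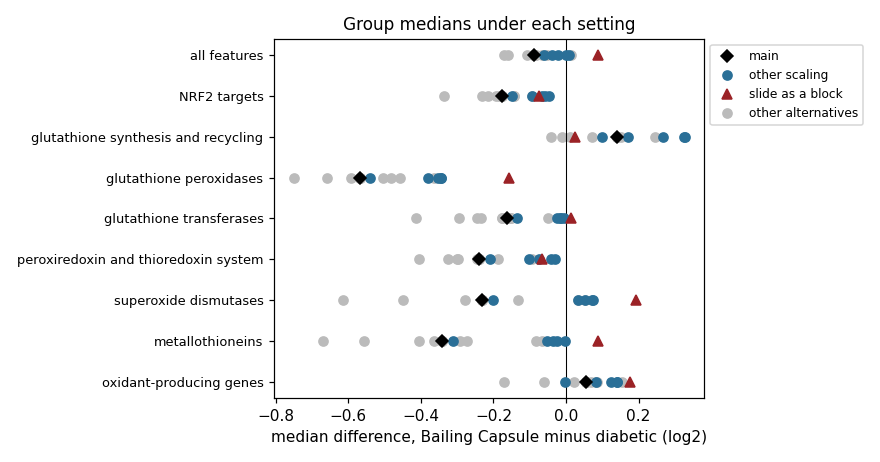
Median log2 difference of each group of members (horizontal axis) in the main processing (diamonds), with other scalings (blue circles), with slide as a block (triangles) and under the other alternatives (grey). The NRF2 targets, the peroxidases and the peroxiredoxin and thioredoxin system stay below 0 throughout. Their medians run from -0.34 to -0.05, from -0.75 to -0.16 and from -0.41 to -0.03. The other groups drawn, and all features, lie on both sides of 0.

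Other genes of these pathways gave 0 called in the same limma fit: 0 of 32 in the NRF2 pathway, 0 of 19 glutathione genes, 0 of 11 oxidant-producing genes and 0 of 4 metal response genes. Over all features 0.319% were called, so 0 in lists this short says little about these pathways. At an unadjusted p under 0.05 the NRF2 pathway list had 4 lower and 0 higher (12.5% lower, against 4.56% of all features). Glrx, the glutaredoxin that removes glutathione from proteins, had 0.73, 1.12 and 0.57 in diabetic and -0.33, -0.75 and -0.98 in Bailing Capsule kidneys, a difference of -1.49 (SE 0.28, adjusted p = 0.0736), 2.82-fold. It was called with median scaling, with a trended robust prior and without Bailing Capsule replicate 1. The biliverdin reductases Blvra and Blvrb, which act after haem oxygenase to make bilirubin, had -1.0 and -0.90, Blvra from -0.97, -0.80 and -0.84 to -1.90, -1.99 and -1.74. Abcc2, the apical pump for glutathione conjugates, had 2.39, 3.49 and 2.78 against 1.73, 1.63 and 1.34, a difference of -1.32 (adjusted p = 0.174). The groups of all 4 genes were apart. These are the same 4 genes that had an unadjusted p under 0.05, so the 2 counts are not separate results. They were the 12.5% of the list with groups apart and lower, against 7.03% of all features. For 0 genes of the list were the groups apart and higher, against 4.58% of all features.

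Among the other glutathione genes the smallest unadjusted p-values were those of Gstm5 (-0.76), Gpx7, a peroxidase of the endoplasmic reticulum (0.64), and Glrx3 (-0.50). Gpx7 was dim, with group means of -5.08 (diabetic) and -4.45 (Bailing Capsule). It was well above background on 2 diabetic and 3 Bailing Capsule arrays. The filter thus kept it only through the group where it was higher, which favours a positive difference. Among other oxidant sources, the aldehyde oxidase gene Aox1 had 0.40 and the monoamine oxidase gene Maoa -0.37. Catalase, Cat, had 0.01 (SE 0.32). Of the metal response genes the zinc exporter gene Slc30a1 had 0.54, Cp, the copper protein ceruloplasmin, -0.52, and the zinc sensor gene Mtf1 0.29. None of these passed after adjustment.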

How the data were processed

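Total kidney RNA labelled with Cy3 was read on 6 arrays, 3 per group. Per the file headers, Agilent Feature Extraction 11.0.1.1 subtracted background and removed spatial trends to give a processed intensity per spot; arrays were not scaled to each other. The deposited value table holds log2 values with nearly equal medians (5.05 to 5.06). Its making is not given in the sources used here; it served as an alternative.

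Control spots and outlier spots (597 to 1091 per array) were left out, spots of a probe were averaged on the log2 scale, and each array's 75th percentile was subtracted. No spot was saturated, and 64.55% to 73.46% of probes were well above background. A probe was kept where at least 50% of its spots were well above background on all 3 arrays of a group, and the brightest kept probe stood for a gene. Accessions were named, without versions, through RefSeq's GRCr8 gene table (18005 of 30367 probes).

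The test was the moderated linear model of limma 3.58.1 under R 4.3.3 (lmFit, eBayes, Benjamini-Hochberg over 17892 features, called at an adjusted p under 0.05), tested on simulated data. The number of arrays limits the precision. The design assumed a mean spot signal, and the median spot signal entered normexp (offset 50). Quantile normalization followed normexp, so the normexp and quantile alternatives share that step.

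Members, gene lists and tests were chosen with earlier results of these data known. Array values are printed for the 4 members with the smallest unadjusted p in each of NRF2 targets, glutathione synthesis with peroxidases, transferases, dismutases with the peroxiredoxin and thioredoxin system, and oxidant-producing genes, for both metallothioneins, 9 fixed genes and genes with several probes. S100a8, S100a9, Itgb2, Ptprc, Alas2, Tf, the 5 liver genes with separate groups, Gss, Gstm3, Gstm7, Cat and Slc26a4 were named after their values were seen; a result that the naming rule also covers is not reported here. Alternatives were quantile, median and cyclic loess scaling (the last chosen after the data were seen), normexp, the deposited values, other filters, the mean of a gene's probes or each probe alone, another prior, slide and replicate blocks and leaving out each array. After removal of group means, same-numbered samples correlated at -0.18, -0.14 and 0.02, so the replicate numbers were not treated as pairs.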

Additional observations from a re-analysis of the deposited data

How the results depend on the processing

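No member was called under any alternative run, and the lowest adjusted p of a member was 0.0731, for Gstm1 with a trended robust prior. Of the 47 members 21 kept the sign of their difference under all alternatives that gave a value and 26 did not; for the 6 with separate groups the sign could not change when arrays were left out or slide was a block. Features called numbered 12 with normexp, 6 with no filter, 32 with cyclic loess, 6 when a replicate block was fitted, and 17 (without diabetic replicate 2) to 195 (without diabetic replicate 1) when 1 array was left out. The replicate block gave 0 members called. Other NRF2 pathway genes called numbered 1 with median scaling and with the trended robust prior (Glrx in both), and 0 to 1 when 1 array was left out (Abcc2 without diabetic replicate 1, Glrx without Bailing Capsule replicate 1).

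Medians that moved by more than the spread between arrays were those of all features, 0.0887 with slide as a block, of Nfe2l2 with Keap1, 0.26 with cyclic loess, and of glutathione synthesis, 0.33 with the deposited values, 0.32 with cyclic loess and -0.0411 to 0.24 when 1 array was left out. The peroxidase median was -0.16 with slide as a block. The median of all antioxidant members, -0.18 in the main processing, was 0.0047 in the normexp setting and 0.0069 with the deposited values. When 1 array was left out it ran from -0.36 to -0.0394, that of NRF2 targets from -0.34 to -0.0928, that of transferases from -0.41 to -0.05 and that of all glutathione genes from -0.34 to -0.0854. The lowest of each of these 4 came without Bailing Capsule replicate 1. Leaving out an array leaves fewer samples and the unfiltered fit has more features; otherwise the cause was not tested. Nqo1 and Mgst2 were too close to background to be tested.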
